A study of Rattus norvegicus with 6 samples.

Results

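The let-7 family, with its relative miR-98, was followed through 6 liver small RNA libraries, 3 from rats with nonalcoholic fatty liver disease (NAFLD) and 3 from normal rats. The family is given here by its 9 mature 5p miRNAs: rno-let-7a-5p, rno-let-7b-5p, rno-let-7c-5p, rno-let-7d-5p, rno-let-7e-5p, rno-let-7f-5p, rno-let-7g-5p, rno-let-7i-5p and rno-miR-98-5p, written below without prefix and arm. A distinct read sequence, called a tag, was counted for a member when its first 20 bases were identical to the first 20 bases of that member. No pair of members shares these 20 bases, so each could be counted alone. Of 1528721 tags, 2171 belonged to the family, which holds 9 of the 370 mature rat miRNAs with reads. All 6 animals were Wistar rats given as 4 months old by the sample labels, while the methods give an older age, and the rats of the study were male. The NAFLD rats were fasted and then kept for some days on a high-starch diet, and the normal rats received a standard diet. The model is thus one of short carbohydrate feeding, and the fasting and the diet cannot be told apart. The NAFLD livers were selected among those richer in triglycerides, and the normal livers were picked at random.

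MicroRNAs are short RNAs of about the length of a tag that guide Argonaute proteins to messenger RNAs. Bases 2 to 8, the seed, make the main contact with the target. Each let-7 miRNA is cut from a hairpin by Drosha and Dicer, and the 5p strand is usually the one kept. The family is low in stem cells and rises as cells differentiate, the RNA-binding protein LIN28 blocks its maturation, and its targets include growth regulators such as HMGA2, IMP and RAS genes and the insulin and IGF receptors. In adult liver it is among the abundant miRNAs. Enzymes that add U or A to finished miRNAs, and cuts at neighbouring positions, give each miRNA several 3′ ends, called isomiRs.

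The mature sequences from the RefSeq table are shown because all members share a seed and are separated by few bases outside it. All 9 matched an entry of the table. The seed is in capitals.
let-7a: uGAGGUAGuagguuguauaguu
let-7b: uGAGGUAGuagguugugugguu
let-7c: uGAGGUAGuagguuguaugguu
let-7d: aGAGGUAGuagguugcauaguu
let-7e: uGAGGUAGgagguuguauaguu
let-7f: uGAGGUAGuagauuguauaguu
let-7g: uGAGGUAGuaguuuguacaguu
let-7i: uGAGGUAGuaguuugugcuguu
miR-98: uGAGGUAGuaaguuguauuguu
The 9 members form 1 seed group, GAGGUAG, and each is 22 nt long. Only let-7d does not begin with U. Counted from 1 at the 5′ end, let-7a differs by a single base from let-7c (A19G), from let-7e (U9G) and from let-7f (G12A), and let-7b differs by a single base from let-7c (G17A).

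The 9 members come from 12 genes in the RefSeq table, whose build is GRCr8. The tag files carry no coordinates and the labels name an older rat build, so these positions serve only to place the genes. One group of 3 genes lies on the plus strand of chromosome 17, with the mature parts of let-7a-1 at chr17:16320145-16320166, let-7f-1 at chr17:16320508-16320529 and let-7d at chr17:16322273-16322294. This group falls within the span of a long noncoding RNA gene, LOC120097935. Chromosome 7 holds let-7c-2 at chr7:118683636-118683657 and let-7b at chr7:118684044-118684065, outside any other gene span, and let-7i at chr7:60527935-60527956 on the minus strand. On chromosome X, let-7f-2 (chrX:24460052-24460073) and miR-98 (chrX:24460663-24460684) lie within the span of Huwe1, a ubiquitin ligase gene. Chromosome 8 carries let-7a-2 (chr8:50805219-50805240) and let-7g (chr8:115701026-115701047), the latter within the spans of Wdr82 and Rpl29. The remaining genes are let-7e (chr1:67350243-67350264), within the span of Spaca6, and let-7c-1 (chr11:29688127-29688148), within that of the noncoding LOC103693508. Spans alone were used, so exons and introns are not given. Since let-7a, let-7c and let-7f each have 2 genes with the same mature sequence, their reads cannot be divided between the genes.

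Each library held 11601058 to 11880695 clean reads, between 881 and 1405 of its tags belonged to the family, and no pair of libraries of a group was alike within sampling noise. Clean reads that matched a mature miRNA were 75.5% to 78.9% in NAFLD and 85.6% to 91.0% in normal liver. NAFLD 2, NAFLD 3 and normal 2 stood apart by a median substitution rate at read position 4 of 1.87% to 2.17%, against 0.0507% to 0.0604% in NAFLD 1, normal 1 and normal 3. This division crossed the groups, but NAFLD 1 was the only NAFLD library of lower rate and normal 2 the only normal library of higher rate. Any comparison of the groups within a set therefore rests on a single library for a group. In family reads, tags with 1 substitution came to 1.91% to 2.24% of exact and substituted reads together in the libraries of higher rate and to 0.888% to 1.14% in those of lower rate. For let-7d this part was 5.57% to 6.05% and 1.02% to 1.55%, so exact matching left out more of its reads in the libraries of higher rate. None of the 9 members had TPM values separated by this division. Of the 170 miRNAs with enough reads to be tested, 42.9% were higher in all 3 libraries of lower rate than in all 3 of higher rate.

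The let-7 family took 24.2% to 28.8% of all clean reads in the liver libraries. The share was 26.2%, 26.4% and 28.8% in NAFLD 1, 2 and 3, and 25.9%, 24.2% and 26.3% in normal 1, 2 and 3. Expressed as reads per 1000000 clean reads (TPM), the sum was 271442 ± 14673 in NAFLD and 254605 ± 10746 in normal liver (SD, n = 3 each). NAFLD 3 was the highest and normal 2 the lowest, and the groups overlapped. The ratio of the means was 1.07, and the log2 ratio of 0.09 was 0.05 with the library NAFLD 3 left out and 0.06 with normal 2 left out. In these bulk samples, fewer cells of a type and less RNA per cell cannot be told apart.

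let-7f was the most abundant member and the miRNA with the second highest mean of all 370. Its levels were 101695, 99187 and 114916 TPM in NAFLD liver and 102141, 89104 and 94144 TPM in normal liver. Its lowest library was still above the highest library of the next member. let-7c followed with 57789, 58598 and 64585 TPM against 57861, 56218 and 64386 TPM, in the same order of groups. let-7a had 57312, 60881 and 63504 TPM against 59444, 55180 and 57425 TPM. The levels of let-7c and let-7a did not differ beyond their spread, since let-7c was the higher in 4 of 6 libraries. let-7b came next with 27365 to 35198 TPM over all libraries, and it ranked 5 in each of them. These 4 members stood well above the rest: the mean of let-7b was 6.08 times that of let-7d.

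let-7d and let-7g formed a middle pair that also did not differ beyond its spread, with let-7d the higher in 5 of 6 libraries. let-7d had 6102, 5129 and 5900 TPM in NAFLD and 5160, 3981 and 4984 TPM in normal liver. let-7g had 4885, 4950 and 5255 TPM against 4633, 4412 and 4245 TPM. It was the only member whose NAFLD libraries all lay above all normal libraries, by means of 5030 ± 197 and 4430 ± 195 TPM (SD, n = 3 each). Over all miRNAs tested, 2.35% had TPM values separated in that direction and 1.76% in the opposite one, where no member was. Lower in the order, let-7e was measured at 1858, 2055 and 1998 TPM against 1367, 1431 and 1899 TPM, so that normal 3 reached the lower end of the NAFLD libraries. let-7i had 545, 554 and 748 TPM against 565, 417 and 504.3 TPM, with NAFLD 3 as the highest library. miR-98 was the rarest member at 26.6, 26.7 and 33.0 TPM against 28.7, 20.6 and 24.6 TPM, and rested on 244 to 390 reads per library. From let-7i to miR-98 the mean fell to 1 part in 20.8, although both carry the same seed.

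**Figure D1:**
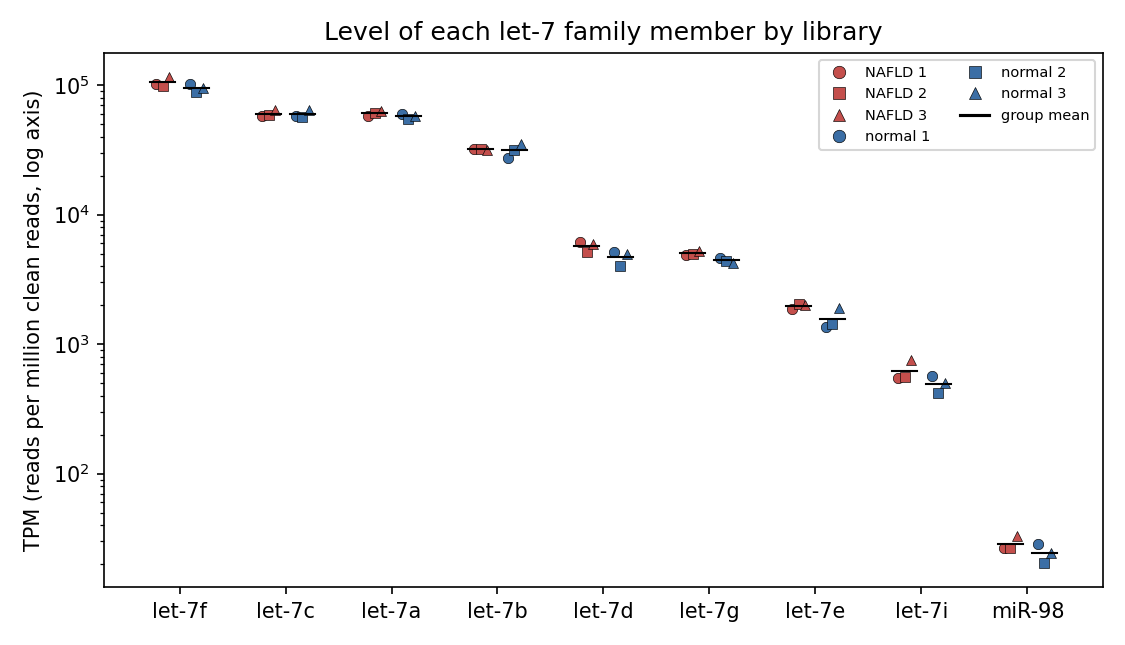
TPM of each family member (log axis) in the 3 NAFLD and 3 normal libraries, with points for libraries and black lines for group means. The levels range from 114916 TPM for let-7f to 20.6 TPM for miR-98, and only for let-7g do all NAFLD points lie above all normal points.

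None of the 9 members passed the test for a difference between NAFLD and normal liver. In edgeR's quasi-likelihood fit across 170 miRNAs with Benjamini-Hochberg adjustment, 0.588% of the miRNAs were called, and 0 of 9 members were among them. At an unadjusted p under 0.05 the fit gave 3 miRNAs, all of them lower in NAFLD, and no member. DESeq2 and limma also called 0 of 9 members. All 9 log2 estimates were above 0, with a median of 0.18, beside a median of 0.01 over all miRNAs tested, of which 86 were higher and 84 lower. With the substitution rate as a covariate the median over all miRNAs was 0.24, so that median depends on the model. The member median of 0.18 is from the fit without this covariate and is not to be set against 0.24. The signs for let-7b and let-7c turn under edgeR's TMM scaling, to -0.04 and -0.02. The estimates share libraries and a common total and are not independent of each other.

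The abundant members had the narrowest errors. For let-7f the log2 difference between NAFLD and normal was 0.15 with an SE of 0.08, and the edgeR adjusted p was 0.992, as for every other member. let-7a differed by 0.08 (SE 0.09), let-7b by 0.02 (SE 0.12) and let-7c by 0.02 (SE 0.10). For the middle pair, let-7d gave 0.28 (SE 0.21) and let-7g 0.18 (SE 0.21). Of all members, let-7e had the largest estimate, 0.33 (SE 0.28), followed by let-7i with 0.31 (SE 0.36). miR-98 gave 0.23 (SE 0.39). A missed threshold does not show that these levels were equal.

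Relative to other miRNAs the picture depended on miR-122, the dominant miRNA of hepatocytes. miR-122-5p made up 44.4%, 45.9% and 46.4% of clean reads in NAFLD and 56.0%, 58.8% and 59.5% in normal liver. It was the only miRNA called in the fit, lower in NAFLD by a log2 difference of -0.35 (SE 0.04, edgeR adjusted p = 7.99e-05). This call was lost under limma and with miRNA reads as the library size, a scaling that moved the median estimate of all miRNAs from 0.01 to 0.20. As a share of miRNA reads, the family took 34.2%, 34.9% and 36.5% in NAFLD and 29.8%, 28.3% and 28.9% in normal liver. All NAFLD libraries were above all normal libraries, at means of 35.2% ± 1.19 and 29.0% ± 0.757 (SD, n = 3 each). Every one of the 9 members was separated in this way on that scale, while 8.82% of all miRNAs tested were, and 1.18% were separated the other way. The 8.82% stands for 15 of 170 miRNAs, and the 9 members are among these 15. miR-122 and the family together made up most of the miRNA reads, so a lower share of miR-122 leaves a higher share for the family. A separation on this scale therefore cannot show whether the level of the family differed.

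With miR-122 reads left out of the total, the groups overlapped for the family. The family itself made up most of that total, so its share could move little and cannot show whether its level differed. Its share of the remaining miRNA reads was 81.5%, 89.0% and 88.8% in NAFLD and 84.2%, 90.5% and 83.3% in normal liver, a ratio of means of 1.00 (log2 ratio 0.0071). On this scale the share was separated by substitution rate: the 3 libraries of lower rate held 81.5% to 84.2% and the 3 of higher rate 88.8% to 90.5%. As a percent of clean reads the family overlapped between these sets. The ratio over all libraries therefore mixes the sets, and within them the log2 ratio of NAFLD to normal was -0.04 in the lower and -0.03 in the higher set. In the lower set NAFLD 1 was the only NAFLD library, and in the higher set normal 2 was the only normal one. let-7a and let-7g were also lower in all libraries of lower rate on this scale, and the other 7 members overlapped. Only let-7d had all NAFLD libraries above all normal ones on this scale, with 1.89%, 1.73% and 1.82% against 1.68%, 1.49% and 1.58%, and 2.37% of all miRNAs tested were separated in that direction. Set against miR-122 alone, there were 0.590, 0.575 and 0.621 family reads per miR-122 read in NAFLD and 0.462, 0.412 and 0.442 in normal liver. Reads of miRNAs other than the family and miR-122 were a small and variable part of the libraries, from 2.54% to 5.97% of clean reads, and the groups overlapped. These reads were separated by substitution rate, with 4.85% to 5.97% in the libraries of lower rate and 2.54% to 3.64% in those of higher rate. Other features of the libraries moved with the groups, miR-122 and the share of miRNA reads. Clean reads that matched no mature miRNA were 21.1% to 24.5% in NAFLD and 8.96% to 14.4% in normal libraries, reads of 26 nt or more were 2.80% to 3.38% and 0.625% to 1.54%, and distinct tags numbered 413022 to 467746 and 221610 to 264974. Their part in these results was not tested.

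**Figure D2:**
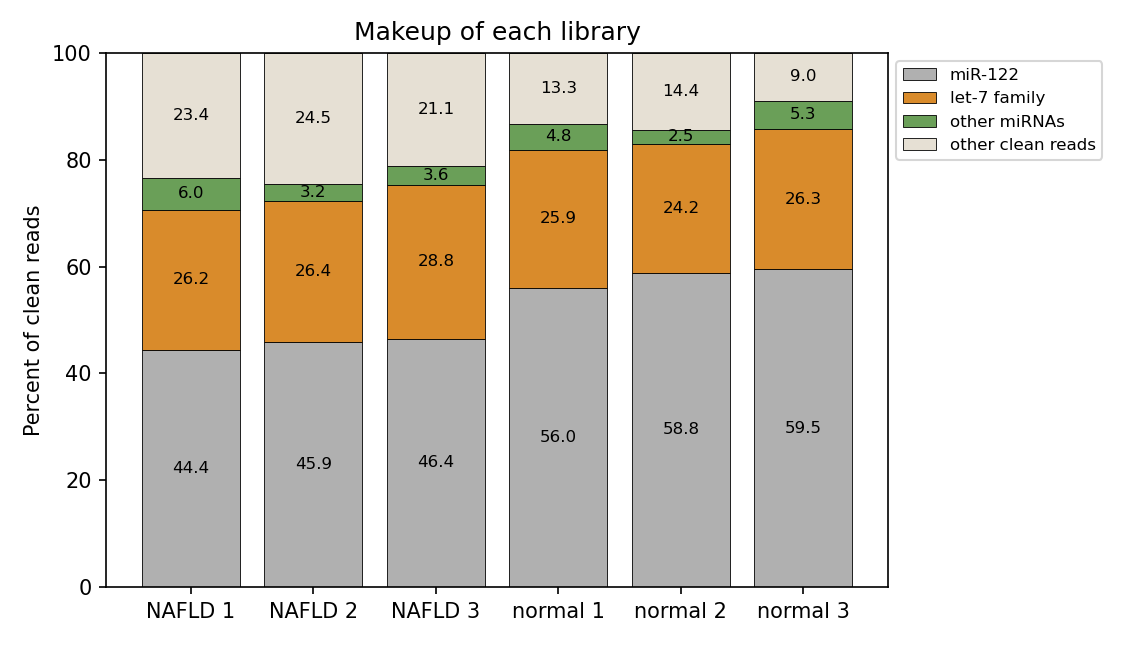
Percent of clean reads in each library that were miR-122, the let-7 family, other miRNAs or other clean reads. The family segment stays between 24.2% and 28.8% in all 6 libraries, while miR-122 falls to between 44.4% and 46.4% in the NAFLD libraries.

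**Figure D3:**
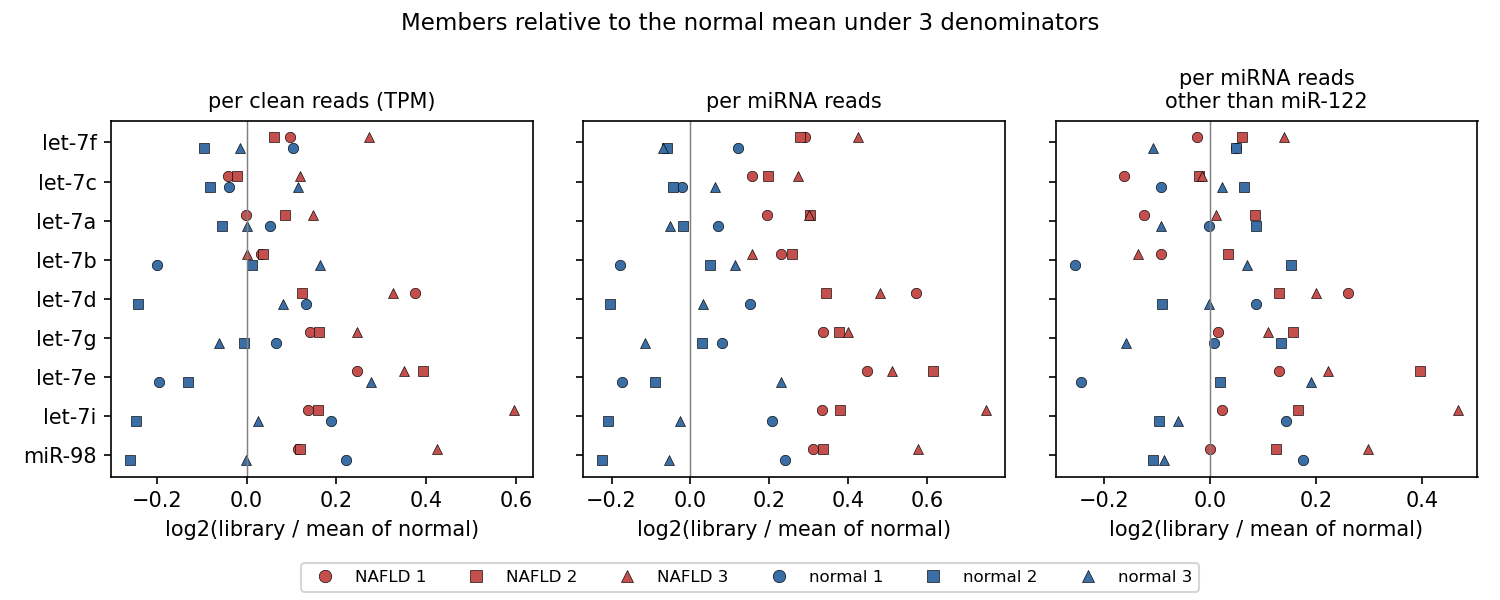
log2 of each library's value over the normal mean for each member, scaled to clean reads, to miRNA reads and to miRNA reads without miR-122; points are libraries. In the middle panel the NAFLD points of all 9 members lie to the right of the normal points, and in the right panel this holds only for let-7d.

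Shares within the family do not depend on the total of the library. let-7f took 38.8%, 37.6% and 39.9% of family reads in NAFLD and 39.5%, 36.8% and 35.8% in normal liver, the largest part in every library. let-7a and let-7c each took between 21.8% and 24.5%, and let-7b between 10.6% and 13.4%. The other 5 members together held a few percent. let-7g was the only member separated between groups, with 1.86%, 1.88% and 1.82% in NAFLD and 1.79%, 1.82% and 1.62% in normal liver. Its means were 1.85% ± 0.0286 and 1.74% ± 0.111 (SD, n = 3 each; exact permutation p = 0.1, two-sided, which is as low as this design goes). The gap was narrow, since NAFLD 3 exceeded normal 2 by less than the widest half-width of a Wilson 95% interval for this share, 0.0154 percentage points. For the other 8 members exact permutation p was 0.2 to 0.9, unadjusted over the 9 comparisons. The number of separated shares rose to 7 of 9 when normal 1 was left out, and to 2 when NAFLD 2, NAFLD 3 or normal 3 was left out.

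Members that differ by a single base were told apart at positions with few other bases. At each of the 4 positions where a pair of members differs by a single base, the 2 bases that belong to neither member reached at most 0.0387% of the reads. The rarer member of each pair came to at least 2.25%, in the pair of let-7a and let-7e, and exceeded the more frequent of those other bases at least 107.5 times.

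The 3′ ends of the family were alike in both groups apart from small differences in forms with an added A or C. Tags identical to the 22-nt mature sequence made up 57.2% ± 1.29 of family reads in NAFLD and 57.0% ± 0.294 in normal liver (SD, n = 3 each). Family reads of 23 nt were 28.3% ± 0.844 and 29.4% ± 0.435, and reads over 23 nt were 7.93% ± 0.649 and 7.40% ± 1.10. The mean length was 22.4 nt in both groups. Tags of 21 nt were 5.18% to 5.44% in NAFLD and 5.58%, 4.07% and 5.70% in normal liver, where normal 2 was lowest of all libraries.

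The members differed from each other in their ends far more than the groups did. let-7g ended at its mature base in 74.3% of its reads, miR-98 in 70.3% and let-7f in 69.0%, as means of 6 libraries. let-7a (58.8%), let-7d (57.99%), let-7e (54.1%) and let-7c (50.3%) followed. For let-7i this form made up 34.1%, and for let-7b only 26.8%. Tags with 1 U added to the mature sequence, read as T, were 40.1% of let-7i, 31.4% of let-7b, 25.6% of let-7d, 23.7% of let-7c and 22.9% of let-7a. They were rarer in let-7e (15.4%), let-7f (13.9%), miR-98 (10.96%) and let-7g (9.15%). In let-7i and let-7b this longer form was thus the most abundant tag.

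**Figure D4:**
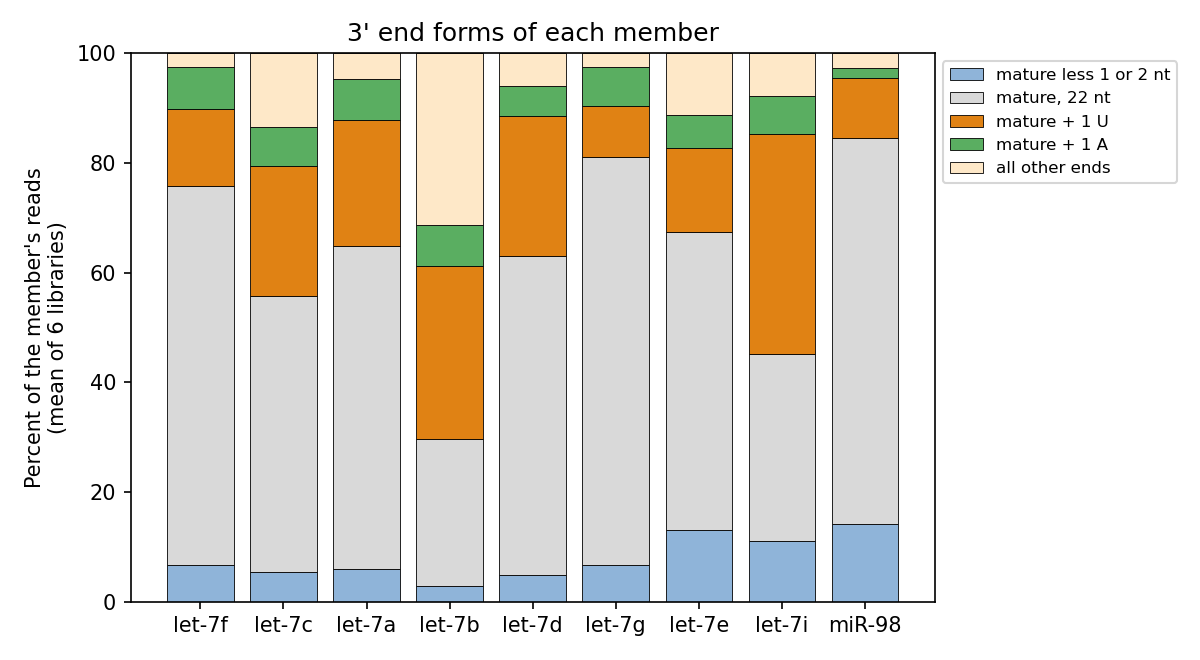
Makeup of each member's reads by 3′ end, as the mean percent over 6 libraries. The mature form takes 74.3% of let-7g and 26.8% of let-7b, and the form with 1 added U takes 40.1% of let-7i.

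The hairpin shows whether an added base could have been copied from the gene. The mature sequence of 3 members is shown with the next 4 bases of its RefSeq hairpin in capitals, because the members differ in whether U follows.
let-7a-1 hairpin: ugagguaguagguuguauaguuUUAG
let-7e hairpin: ugagguaggagguuguauaguuGAGG
let-7i hairpin: ugagguaguaguuugugcuguuGGUC
The hairpins of let-7a, let-7c, let-7d, let-7g and let-7f-2 continue with U, and those of let-7e, let-7f-1, let-7i and miR-98 with G. The most abundant tag of let-7i and the longer tags of let-7e are shown as read, with the bases after position 20 in capitals, since they end on bases that their hairpins do not all encode.
let-7i with T: tgaggtagtagtttgtgctgTTT
let-7e with T: tgaggtaggaggttgtatagTTT
let-7e with G: tgaggtaggaggttgtatagTTG
The let-7i tag with T was read at 218, 218 and 304 TPM in NAFLD and at 220, 170 and 206 TPM in normal liver, and its hairpin does not encode the last base. For let-7e, the T form that is not in the hairpin had a mean of 270 TPM and the G form that is in it 78.9 TPM. Over the family, reads extended as the hairpin reads were 19.1% in NAFLD and 18.8% in normal liver, and extended reads that differed from it were 8.62% and 8.88%. Extended let-7b reads, for which no hairpin was used here, came to 7.90% and 8.36%. All 3 kinds overlapped between the groups.

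The form with 1 added A was the larger of the 2 forms that separated the groups. It made up 7.19%, 7.05% and 7.27% of family reads in NAFLD and 7.45%, 7.98% and 7.73% in normal liver. All NAFLD libraries were lower, by 0.549 percentage points between means of 7.17% ± 0.109 and 7.72% ± 0.264 (SD, n = 3 each). Among 36 miRNAs of at least 100 TPM, 25% had this form lower in all NAFLD libraries than in all normal ones, and none had it higher. The members let-7a, let-7b, let-7c and let-7f were 4 of these 9, out of 8 members at that level, beside 5 of 28 other miRNAs. The gap was narrow for let-7b, with 7.493% in NAFLD 1 and 7.511% in normal 1. It was also narrow for let-7c, with 7.008% and 7.024% in the same libraries. Both gaps were smaller than the widest half-width of a Wilson interval for that share, 0.0907 and 0.0639 percentage points. For let-7a and let-7f the gap was wider than this half-width. A lower NAFLD mean, separated or not, was found for 8 of 8 members and for 20 of 28 other miRNAs. let-7f carried the form in 7.39%, 7.21% and 7.60% of its reads in NAFLD and in 7.74%, 8.44% and 8.11% in normal liver (two-sided exact permutation test, n = 3 each, p = 0.1). let-7b differed least of the 4, by means of 7.46% ± 0.0330 and 7.67% ± 0.160. In let-7d, let-7e, let-7g, let-7i and miR-98 the groups overlapped. miR-98 had the lowest share, 0.513% to 2.87%. The family difference was -0.81 percentage points within the libraries of higher substitution rate, where normal 2 had the highest share of all, and -0.40 within those of lower rate. These values rest on normal 2 and on NAFLD 1, in turn, as the only library of a group. As a mean over members with equal weight the family difference was -0.36. The form with 1 added U, at 20.3% ± 0.787 and 20.7% ± 0.550 of family reads, overlapped. The form with 1 added C was the other one separated, at 0.0323% ± 0.0026 in NAFLD and 0.0372% ± 0.0041 in normal liver, with NAFLD 2 and normal 1 both near 0.0344%.

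**Figure D5:**
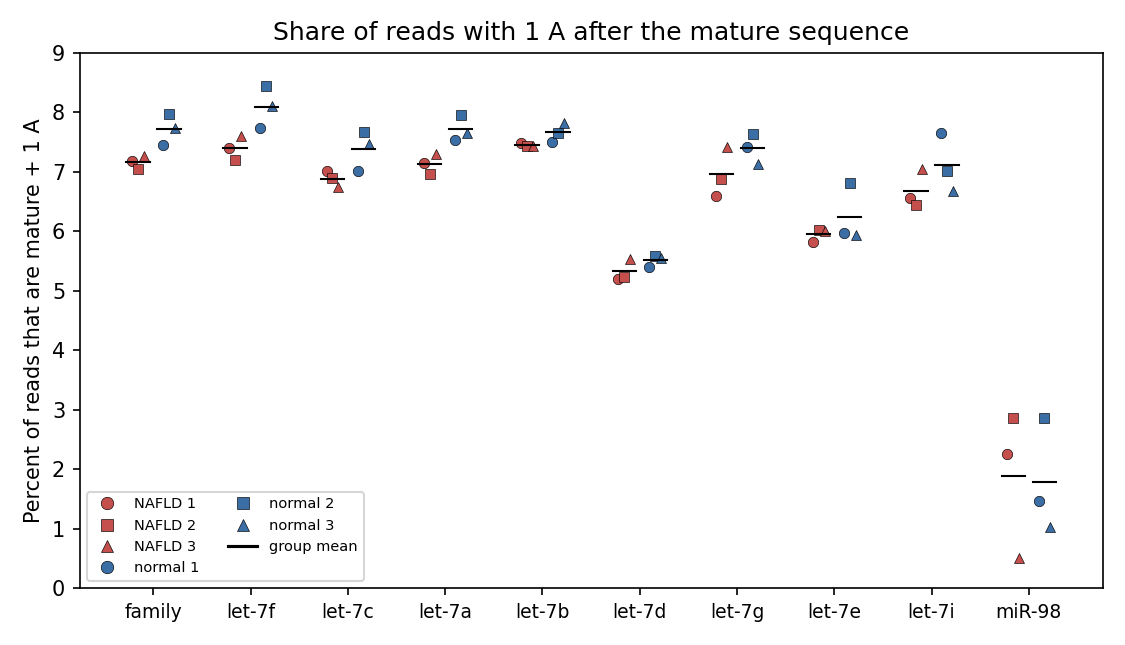
Percent of reads that were the mature sequence plus 1 A, for the family and each member, with points for libraries and black lines for group means. NAFLD points lie below all normal points for the family and for let-7f, let-7c, let-7a and let-7b, and miR-98 is low in both groups.

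The 3p arms of the let-7 hairpins, the strands usually discarded, were rare in all libraries. Of 12 listed names, 11 were in the reference and 9 sequences had reads, of which 2 passed the filter for the fit and 0 were called. let-7d-3p was the most abundant with 24.2, 18.3 and 11.9 TPM in NAFLD and 28.4, 11.04 and 21.6 TPM in normal liver. let-7d-3p was higher in all libraries of lower substitution rate than in all of higher rate. It made up 0.368% of the reads of both let-7d arms. The sequence shared by let-7a-1-3p and let-7c-2-3p averaged 1.13 TPM, and let-7b-3p 0.678 TPM. For let-7f, 21 reads of its 3p arms stood beside 7090647 reads of the 5p arm.

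Some let-7 genes lie beside genes of the miR-99/100 and miR-125 families. In GRCr8, miR-99b precedes let-7e by 152 bases and miR-125a follows it after 425 bases, and miR-100 lies 6891 bases before let-7a-2. All 4 listed partners with a reference sequence were tested and 0 were called, and their log2 estimates between NAFLD and normal ran from -0.38 to -0.12. miR-125b-5p had 104, 48.0 and 55.1 TPM in NAFLD and 94.7, 49.4 and 125.7 TPM in normal liver. miR-125a-5p had 68.4, 41.1 and 35.9 TPM against 65.5, 31.2 and 74.4 TPM, and miR-99b-5p 31.5, 15.8 and 23.4 TPM against 29.7, 16.5 and 35.9 TPM. All 4 partners, miR-100-5p included, were higher in the 3 libraries of lower substitution rate than in the other 3, which none of the let-7 members showed. let-7e, the neighbour of miR-99b and miR-125a, was at 1858 TPM in NAFLD 1 and 2055 TPM in NAFLD 2, where both neighbours were lower in NAFLD 2.

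Summed markers of other liver cell types overlapped between the groups. The level of the 3 erythroid markers with reads, of 4 listed, was 27.0 to 74.7 TPM in NAFLD and 30.8 to 50.1 TPM in normal liver. Sums for the 5 stellate cell and smooth muscle markers, of 5 listed, were 520 to 643 and 334 to 575 TPM, for the 4 of 5 immune cell markers 5.44 to 10.6 and 2.86 to 8.94 TPM, for the 2 of 2 endothelial markers 22.96 to 47.4 and 14.6 to 40.9 TPM, and for the 2 of 5 biliary markers 0.765 to 2.03 and 1.77 to 2.95 TPM. None of these markers was called. The stellate cell marker miR-199a-3p alone lay higher in all NAFLD libraries, with 437, 397 and 428 TPM against 293, 210 and 382 TPM. Over all miRNAs tested, 2.35% were separated in that direction. Of the 5 markers of its list, 3 had log2 estimates above 0, while miR-143-3p (-0.17) and miR-145-5p (-1.34) were below 0. The biliary marker miR-141-3p was near absent, at 0 to 2 reads per library. Of the 3 hepatocyte markers, only miR-122-5p was called, as given above. The other markers, miR-192-5p (mean 19554 TPM) and miR-194-5p (mean 398 TPM), overlapped between the groups. Both were higher in all libraries of lower substitution rate than in all of higher rate. Within each set the NAFLD libraries were above the normal ones, though NAFLD 1 or normal 2 stood alone for its group. In the lower set miR-192-5p had 28199 TPM in NAFLD against 21465 and 25371 TPM. In the higher set it had 15308 and 15889 against 11093 TPM. The labelled tissue was matched in every library by its leading miRNA, miR-122-5p.

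The miRNAs whose level most resembled the summed family over the 6 libraries were miR-181b-5p, miR-378a-3p and miR-181a-5p, from 81 miRNAs outside the family with a mean of at least 10 TPM. Pearson's r on the log scale was 0.88, 0.83 and 0.81, and Spearman's rho 0.77, 0.60 and 0.60, given as a description because the 3 were chosen by this value. Without NAFLD 3 and normal 2, the libraries farthest from the median of the family, r was 0.32, 0.32 and -0.07. The likeness therefore rests on those libraries.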

How the data were processed

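Small RNA from 1 liver per rat was sequenced for 3 NAFLD and 3 normal rats. The authors discarded reads of low quality, with primer contaminants or poly A, without insert or shorter than 18 nt. The tags that remained were deposited with their counts. These counts are neither normalized nor filtered by genome match. The deposited log counts gave the clean reads, which equalled the sum of the tags. No per-sample column was left unused. Counts were summed by the first 20 bases for the 693 mature rat miRNAs in the RefSeq table, and shorter ones were matched by their whole sequence. Those with the same matched bases were counted together, which left 370 entries with reads. TPM is the count per 1000000 clean reads.

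The test on counts used R 4.3.3 and edgeR 4.0.16 (glmQLFit, glmQLFTest, filterByExpr, library size equal to clean reads, Benjamini-Hochberg threshold 0.05). The SE is the absolute log2 difference divided by the square root of F. Shares and end forms were compared by two-sided exact permutation tests computed with numpy 2.4.6. For these, 3 against 3 cannot go below 0.1, and no p is given for sums over members. Wilson 95% intervals, from scipy 1.17.1, describe counting error alone, as reads copied by PCR do not each stand for a molecule. DESeq2 1.42.0 and limma 3.58.1 were alternatives, and the fit was tested on simulated data. The division by substitution rate used 50 abundant tags. Labels do not say more of the replicates than a number, so p-values measure the spread between these libraries.

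Named miRNAs are the 9 members, the 3p arms and cluster partners highest in level, and the 3 miRNAs most like the summed family. miR-122-5p and the other markers of the fixed cell type lists that the text names, and miR-100-5p, were named after their values were seen. The members and lists, markers included, were chosen with earlier results of these data known.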

Additional observations from a re-analysis of the deposited data

How the results depend on the processing

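Across alternative settings of the fit, none of the 151 values for members passed the threshold, and the smallest adjusted p was 0.0697, for let-7f with miRNA reads as library size in edgeR. The direction held in 144 and turned in 7, all for let-7b and let-7c: let-7b was -0.038 with TMM, -0.0087 with DESeq2 and -0.067 to 0.113 when a library was left out, and let-7c was -0.017 with TMM, -0.020 with only whole mature sequences and -0.032 to 0.081 when a library was left out. The cause was not tested. The number of miRNAs called was 1 in the fit as reported, 0 with miRNA reads as library size and with limma at either pseudocount, and 1 to 2 when a library was left out (2 without NAFLD replicate 1). With the replicate number as a block it was 1 and no call on a member changed. Deviations of same-numbered libraries correlated at 0.13, 0.34 and -0.53. NAFLD and normal libraries of the same substitution set correlated at 0.13 to 0.45, and those of different sets at -0.53 to 0.11. With the sets mixed in, these values cannot decide whether the numbers pair the libraries. The log2 ratio of the summed family, 0.09, was 0.28 per miRNA read, 0.20 per read of 21 to 23 nt, 0.0071 per miRNA read other than miR-122 (chosen after seeing the data; -0.04 within the libraries of lower and -0.03 within those of higher substitution rate), 0.0092 and 0.19 per clean read within the libraries of lower and of higher rate, and 0.05 to 0.12 when a library was left out. The number of member shares separated between groups, 1, became 2 with whole mature sequences and with up to 1 substitution, and 1 to 7 when a library was left out. The difference in added A, -0.55 percentage points, was -0.81 within the libraries of higher and -0.40 within those of lower rate, -0.36 as a mean over members with equal weight and -0.68 to -0.42 when a library was left out. With the first 18 bases let-7a and let-7c are the same, so no separate value or share was computed. Counting error is largest for miR-98, with 244 to 390 reads per library, and whether depth limits its test was not examined.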

Other observations

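Reads that began elsewhere than at the mature 5′ end, and so would carry a shifted seed, were rare in the family. Per 100 reads counted by the 20-base rule, 0.0465 ± 0.0152 began 1 base later in NAFLD and 0.0470 ± 0.0108 in normal liver, and 0.0256 ± 0.0080 and 0.0302 ± 0.0091 began 1 base earlier (SD, n = 3 each). Both overlapped between the groups. Among members, let-7c and let-7d had the most reads starting 1 base later, with means of 0.0887 and 0.121 in NAFLD, and let-7g had the most starting 1 base earlier, with 0.101. For miR-98 no such read was found, but its 1889 reads over all libraries are too few to show a difference from the other members at these rates.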
